A study of Mus musculus with 8 samples.

Results

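The genes that encode the aminoacyl-tRNA synthetases, the enzymes that load each tRNA with its amino acid, were examined in single-nucleus RNA-seq libraries of mouse hearts. Members were the rows whose gene symbol is one of 35 synthetase symbols, of 32285 genes counted, and each of the 35 was found. By name, 19 encode cytosolic enzymes and 16, whose symbols end in 2, mitochondrial enzymes. Whole hearts came from 4 WT and 4 Taz-KO mice, all male and 9 weeks old, with 1 library per mouse. Taz encodes tafazzin, the mitochondrial transacylase that remodels cardiolipin, and its loss causes Barth syndrome. The promoter or allele behind the knockout is not given in the sources used here.

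Most cytosolic synthetases work on tRNAs encoded in the nucleus, and a separate set, also encoded in the nucleus, is imported to charge the tRNAs of the mitochondrial genome. Gars and Kars are exceptions, since each gene encodes both the cytosolic and the mitochondrial enzyme. Eprs encodes a fused enzyme for glutamate and proline, and Farsa and Farsb encode the subunits of the phenylalanine enzyme. Several cytosolic synthetases are held together in the multisynthetase complex. Genes of the cytosolic enzymes are known targets of the transcription factor ATF4, which acts in the integrated stress response to low amino acids or to mitochondrial stress.

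Libraries held between 20025456 and 348080773 UMIs. Taz-KO mice 4685 and 5301, with 3492 and 5571 barcodes, stood apart from the others, which had 21190 or more. After filters, 151264 barcodes were kept as nuclei and clustered, and clusters were named from marker genes. This gave 28460 cardiomyocyte, 38043 fibroblast, 21271 endothelial, 12094 macrophage and 5366 pericyte nuclei, while 40377 stayed unnamed. The largest unnamed cluster held 19507 barcodes, with mixed markers and a median mitochondrial share of 25.8% of the UMIs. The paper kept fewer nuclei after its own filters. Whether each barcode kept here held a nucleus was not tested. None of the defining markers was at 0 in the sums of the 5 types counted above. The same markers named the clusters, so this is no separate check of the names. In Taz-KO mouse 4685 there were 171 cardiomyocyte and 14 pericyte nuclei. At most 1.05% of the barcodes of a library were shared with another. For each mouse the UMIs of a type were added up, without the genes of the mitochondrial genome. Levels are in CPM, the UMIs of a gene relative to all UMIs of that sum on the usual CPM scale, after TMM scaling. Levels within clusters and sums over markers are in CPM without TMM scaling. Values by mouse follow the order 4686, 4909, 5355 and 5356 in WT and 4685, 4910, 5300 and 5301 in Taz-KO. In cardiomyocytes Taz was at 55.2, 47.9, 53.5 and 57.4 CPM in WT and 43.2, 37.6, 23.5 and 34.9 CPM in Taz-KO (log2 fold change -0.63, adjusted p = 0.0388), with each Taz-KO mouse below each WT mouse.

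In cardiomyocytes 12 of the 19 cytosolic synthetase genes were higher in Taz-KO at an adjusted p under 0.05, and none was lower. Of all 18442 genes tested in cardiomyocytes, 9.08% were higher and 6.65% lower by the same rule. The median log2 fold change was 1.01 over the 19 cytosolic genes, 0.02 over the 16 mitochondrial genes and -0.01 over all genes tested. Each Taz-KO mouse was above each WT mouse in 15 of the 19 cytosolic genes and in 0 of the 16 mitochondrial genes, compared with 11.1% of all genes. The higher genes were Gars, Cars, Yars, Nars, Eprs, Iars, Lars, Sars, Aars, Tars, Vars and Farsb.

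**Figure D1:**
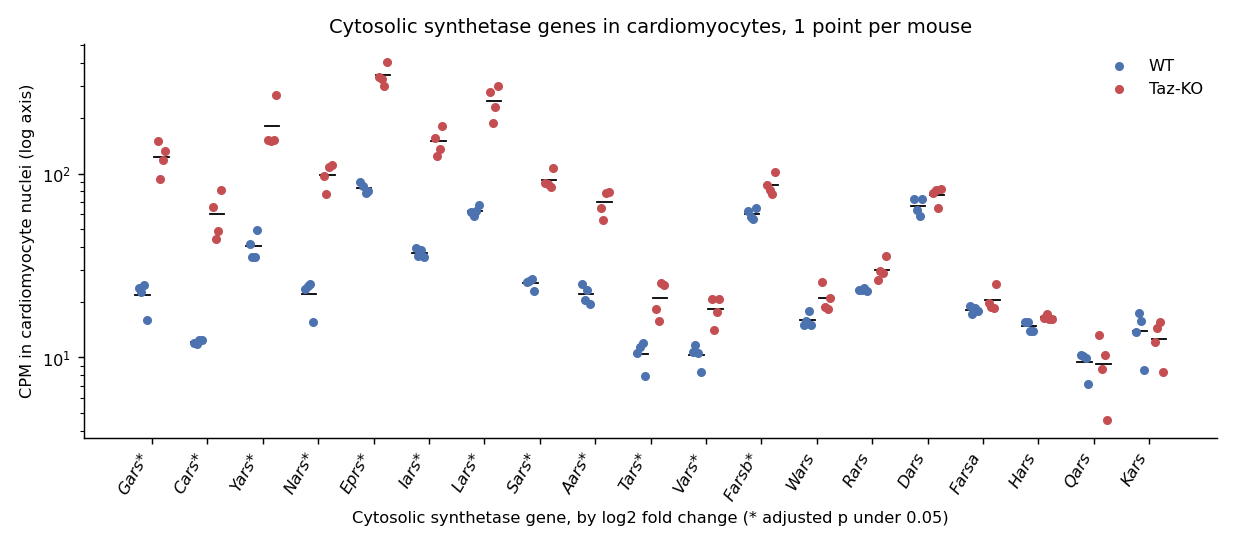
CPM of the 19 cytosolic synthetase genes in cardiomyocyte nuclei on a log axis, with 1 point per mouse (4 WT, 4 Taz-KO), lines at the group means and an asterisk at the genes with an adjusted p under 0.05. The genotypes stand apart from Gars to Farsb and overlap or nearly touch in the genes to the right of it.

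Gars, the glycine enzyme (ENSMUSG00000029777, chromosome 6 of GRCm38 from 55038007 to 55079500), had the largest log2 fold change of the 35 genes. It was at 23.9, 22.8, 24.8 and 16.02 CPM in WT and at 151, 93.9, 118 and 132 CPM in Taz-KO. The group means were 21.9 ± 3.99 and 124 ± 23.9 CPM (SD, n = 4 mice each), and its log2 fold change was 2.49 (standard error 0.20, 95% interval 2.05 to 2.94, adjusted p = 1.87e-05). The lowest Taz-KO mouse was thus well above the highest WT mouse, and 98.7% of the genes tested had a smaller log2 fold change. Cars, which serves cysteine, was at 11.9, 11.8, 12.5 and 12.5 CPM in WT and at 65.5, 44.2, 48.7 and 81.4 CPM in Taz-KO (log2 fold change 2.29, standard error 0.20, adjusted p = 2.75e-05). The WT mice were nearly equal, and the spread lay in the Taz-KO mice.

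Yars, the tyrosine enzyme, was at 41.6, 35.1, 35.2 and 49.1 CPM in WT and at 152, 151, 152 and 268 CPM in Taz-KO (log2 fold change 2.17, standard error 0.23, adjusted p = 1.21e-04). Nars, which serves asparagine, was at 23.5, 24.5, 25.1 and 15.7 CPM in WT and at 96.3, 77.1, 109 and 111 CPM in Taz-KO (log2 fold change 2.15, standard error 0.19, adjusted p = 3.83e-05). In both genes 1 mouse stood apart within its group, Taz-KO 5301 with the highest Yars and WT 5356 with the lowest Nars. Sars, the serine enzyme, was at 25.9, 25.9, 26.6 and 23.0 CPM in WT and at 88.6, 87.5, 84.5 and 107 CPM in Taz-KO (log2 fold change 1.86, standard error 0.14, adjusted p = 1.25e-05). Aars, the alanine enzyme, was at 24.98, 20.6, 23.2 and 19.5 CPM in WT and at 65.1, 55.5, 78.3 and 79.5 CPM in Taz-KO (log2 fold change 1.66, standard error 0.16, adjusted p = 7.40e-05). For Sars and Aars the gap between the genotypes was wider than the range within either.

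Members of the multisynthetase complex were split. Eprs was at 89.9, 85.7, 78.4 and 80.2 CPM in WT and at 336, 326, 299 and 404 CPM in Taz-KO (log2 fold change 2.03, standard error 0.16, adjusted p = 1.87e-05). Iars, for isoleucine, was at 39.3, 35.6, 38.2 and 35.2 CPM in WT and at 156, 124, 136 and 182 CPM in Taz-KO (log2 fold change 2.01, standard error 0.16, adjusted p = 1.89e-05). Lars, for leucine, was at 61.7, 58.6, 62.7 and 67.6 CPM in WT and at 278, 188, 229 and 301 CPM in Taz-KO (log2 fold change 1.99, standard error 0.18, adjusted p = 4.26e-05). Of the 7 members of the complex among the 35 genes these 3 passed, and Rars, Dars, Qars and Kars did not pass. Outside the complex 9 of 12 passed. By catalytic class, 5 of 8 class I and 6 of 10 class II enzymes passed, beside Eprs, which holds both classes.

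The remaining higher genes had smaller differences. Tars, the threonine enzyme, was at 10.6, 11.4, 12.03 and 7.91 CPM in WT and at 18.5, 15.8, 25.5 and 24.7 CPM in Taz-KO (log2 fold change 1.01, standard error 0.21, adjusted p = 0.00694). Vars, which serves valine, was at 10.7, 11.8, 10.6 and 8.36 CPM in WT and at 20.9, 14.1, 17.6 and 20.9 CPM in Taz-KO (log2 fold change 0.81, standard error 0.18, adjusted p = 0.0122). Farsb was at 62.5, 57.9, 56.7 and 64.7 CPM in WT and at 87.0, 81.5, 77.4 and 102 CPM in Taz-KO (log2 fold change 0.52, standard error 0.14, adjusted p = 0.0303). The mice of these 3 genes did not overlap between genotypes, but Farsb and Vars were the calls that depended on the libraries used. Without Taz-KO mice 4685 and 5301, Farsb had a log2 fold change of 0.38 (adjusted p = 0.202) and Vars one of 0.60 (adjusted p = 0.102). Farsb also had an adjusted p of 0.0674 without WT mouse 4686, 0.0778 without WT mouse 4909, 0.0847 without WT mouse 5355 and 0.0515 without Taz-KO mouse 5301.

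The other 7 cytosolic genes did not pass. Rars, the arginine enzyme, was at 23.3, 23.4, 23.9 and 23.0 CPM in WT and at 26.4, 29.4, 28.7 and 35.8 CPM in Taz-KO (log2 fold change 0.36, 95% interval 0.06 to 0.66, adjusted p = 0.104). Wars, the tryptophan enzyme, was at 15.1, 15.8, 17.8 and 15.1 CPM in WT and at 25.8, 18.9, 18.3 and 21.1 CPM in Taz-KO (log2 fold change 0.39, 95% interval 0.04 to 0.73, adjusted p = 0.126). In both genes each Taz-KO mouse was above each WT mouse. Hars, the histidine enzyme, also had mice that did not overlap, at 15.5, 15.5, 14.0 and 14.0 CPM in WT and 16.4, 17.2, 16.1 and 16.3 CPM in Taz-KO, yet the log2 fold change was 0.16 (95% interval -0.14 to 0.46, adjusted p = 0.494). Hars lies on the opposite strand of Hars2 and overlaps its 5′ end.

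The mice overlapped in the last 4 genes. Dars, the aspartate enzyme, was at 72.6, 63.6, 58.5 and 72.8 CPM in WT and at 77.9, 81.8, 65.0 and 82.7 CPM in Taz-KO (log2 fold change 0.20, 95% interval -0.13 to 0.52, adjusted p = 0.421). Farsa, the partner subunit of Farsb, was at 19.1, 17.2, 18.5 and 17.9 CPM in WT and at 19.9, 18.8, 18.6 and 24.95 CPM in Taz-KO (log2 fold change 0.17, 95% interval -0.15 to 0.50, adjusted p = 0.497). In both genes the lowest Taz-KO mouse lay within the WT range. Qars, the glutamine enzyme, was at 10.3, 10.2, 9.93 and 7.21 CPM in WT and at 13.2, 8.64, 10.4 and 4.59 CPM in Taz-KO (log2 fold change -0.04, 95% interval -0.64 to 0.56, adjusted p = 0.945). Kars, the lysine enzyme of both compartments, was at 13.8, 17.4, 15.8 and 8.56 CPM in WT and at 12.2, 14.5, 15.7 and 8.32 CPM in Taz-KO (log2 fold change -0.12, 95% interval -0.67 to 0.44, adjusted p = 0.818). In both genes Taz-KO mouse 5301 and WT mouse 5356 were the lowest of their groups. Kars and Gars, which both supply the mitochondria and the cytosol, thus differed in level change, with intervals that do not overlap.

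**Figure D2:**
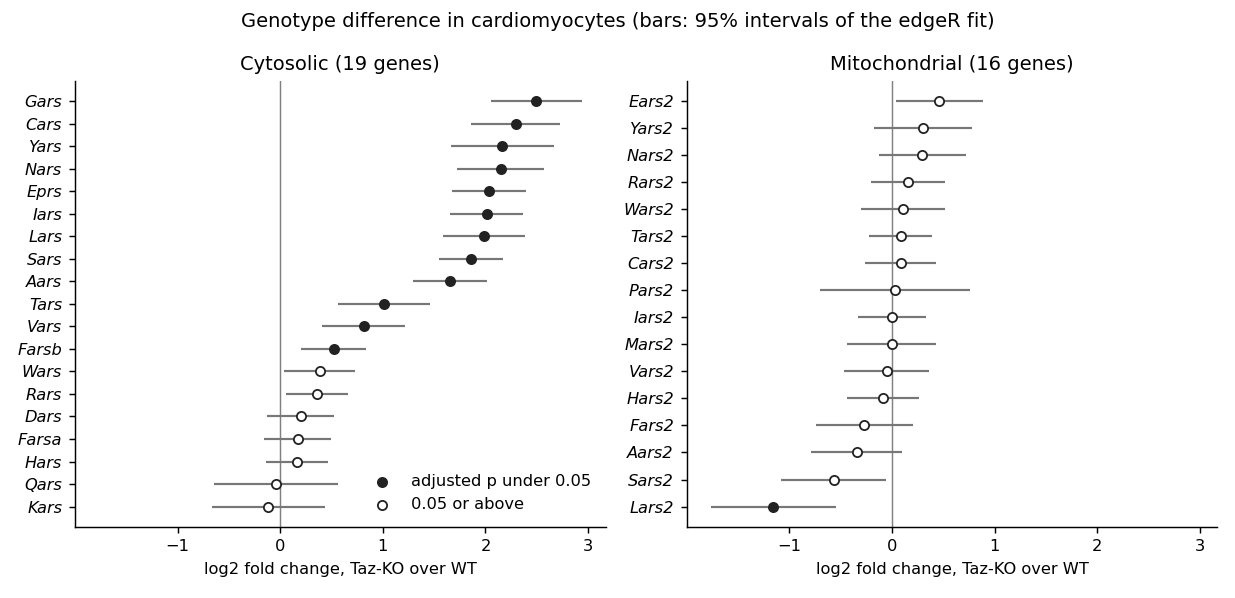
Log2 fold changes of the cytosolic and mitochondrial synthetase genes in cardiomyocytes, Taz-KO over WT, with 95% intervals of the edgeR fit. The cytosolic genes run from -0.12 in Kars to 2.49 in Gars, and the mitochondrial genes from -1.16 in Lars2 to 0.46 in Ears2.

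Of the 16 mitochondrial synthetase genes, 9 had a positive log2 fold change in cardiomyocytes, and only Lars2 passed the test. None was higher by edgeR or DESeq2 at an adjusted p under 0.05, and Ears2 was at an unadjusted p under 0.05. Lars2, the mitochondrial leucine enzyme (ENSMUSG00000035202, chromosome 9 of GRCm38 from 123366927 to 123462666), was lower. It was at 663, 933, 506 and 558 CPM in WT and at 263, 227, 461 and 241 CPM in Taz-KO, and its log2 fold change was -1.16 (standard error 0.28, 95% interval -1.76 to -0.55, adjusted p = 0.0161). Each Taz-KO mouse was below each WT mouse, with Taz-KO mouse 5300 closest to them. The adjusted p was 0.0563 without Taz-KO mouse 4685, 0.0564 without Taz-KO mouse 4910 and 0.0559 without WT mouse 4909. It was 0.134 without Taz-KO mice 4685 and 5301, and 0.763 after the subtraction of a low-UMI profile described further on. The log2 fold change was between -1.44 and -0.93 in all alternatives. For the subtraction this is no sign of stability, since the profile held Lars2 at 2505 CPM in WT mouse 5356 and 1102 CPM in Taz-KO mouse 5301. The subtraction took most of the Lars2 UMIs in every mouse and all of them in these mice. Gm42418, a gene whose reads overlap ribosomal RNA sequence, was at 21530.0, 25232, 14254 and 17955 CPM in WT and at 7047, 7594, 14257 and 10842 CPM in Taz-KO (log2 fold change -0.99, adjusted p = 0.0430), and mouse 5300 was again the highest of the Taz-KO mice. AY036118, another such gene, had a log2 fold change of 1.78 (adjusted p = 0.00625). The part of such reads in the Lars2 counts was not tested.

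The next lowest mitochondrial genes were Sars2 and Aars2, for serine and alanine. Sars2 was at 8.96, 7.76, 7.23 and 8.84 CPM in WT and at 3.04, 6.05, 5.85 and 6.70 CPM in Taz-KO (log2 fold change -0.57, 95% interval -1.08 to -0.06, adjusted p = 0.129). Aars2 was at 6.39, 7.86, 7.61 and 8.36 CPM in WT and at 4.67, 5.24, 6.89 and 6.83 CPM in Taz-KO (log2 fold change -0.34, 95% interval -0.79 to 0.10, adjusted p = 0.298). The genotypes did not overlap in Sars2 and did in Aars2. At the other end was Ears2, the mitochondrial glutamate enzyme, at 19.4, 16.96, 16.9 and 24.2 CPM in WT and 30.8, 24.6, 19.6 and 32.3 CPM in Taz-KO (log2 fold change 0.46, 95% interval 0.04 to 0.89, adjusted p = 0.137). Yars2, for tyrosine, was at 8.10, 6.82, 8.17 and 4.84 CPM in WT and at 6.90, 8.33, 8.98 and 10.1 CPM in Taz-KO (log2 fold change 0.30, adjusted p = 0.409). Nars2, for asparagine, was at 53.7, 52.5, 49.98 and 72.5 CPM in WT and at 72.2, 67.0, 52.0 and 90.4 CPM in Taz-KO (log2 fold change 0.30, adjusted p = 0.352). WT and Taz-KO mice overlapped in Ears2, Yars2 and Nars2.

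The remaining mitochondrial genes, Cars2, Fars2, Hars2, Iars2, Mars2, Pars2, Rars2, Tars2, Vars2 and Wars2, had log2 fold changes between -0.27 in Fars2 and 0.16 in Rars2. For 12 amino acids the cytosolic and the mitochondrial gene share a symbol stem, and in each of these 12 pairs the cytosolic gene had the larger log2 fold change. Outside these pairs, Eprs was at 2.03 beside 0.46 in Ears2 and 0.03 in Pars2, and Farsb and Farsa were at 0.52 and 0.17 beside -0.27 in Fars2. The difference between the genes of a pair was widest for leucine, 3.15 on the log2 scale between Lars and Lars2, and narrowest for arginine, 0.20 between Rars and Rars2. In 9 of the 12 pairs the cytosolic gene was past the threshold and higher.

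The promoters of the members were searched for short motifs, since several members moved together. RefSeq gave the 300 bases from 250 before to 50 after the transcription start of 12 cytosolic and 14 mitochondrial members on GRCm38.p6, and Vars, Cars, Lars, Nars, Wars, Hars, Rars, Pars2 and Hars2 were not matched. The C/EBP-ATF response element, TGATGNAA on either strand, was present in 5 of the 12 cytosolic promoters (41.7%), in 0 of the 14 mitochondrial promoters and in 4.51% of the promoters of 27025 symbols. The 5 genes were Gars, Yars, Aars, Iars and Tars. Of the cytosolic genes with a promoter, 5 of the 8 that were higher in cardiomyocytes held it and 0 of the 4 that did not pass. The stretches from 120 bases before to 30 after the start are shown for these 5 genes, as the higher genes with a match, and for Kars and Qars, as the genes with the lowest log2 fold changes, with capitals at the element.

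Gars promoter, chr6:55037881-55038030, plus strand: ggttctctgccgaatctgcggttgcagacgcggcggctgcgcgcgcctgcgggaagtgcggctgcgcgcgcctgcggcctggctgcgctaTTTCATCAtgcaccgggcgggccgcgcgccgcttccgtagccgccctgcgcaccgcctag
Yars promoter, chr4:129189783-129189932, plus strand: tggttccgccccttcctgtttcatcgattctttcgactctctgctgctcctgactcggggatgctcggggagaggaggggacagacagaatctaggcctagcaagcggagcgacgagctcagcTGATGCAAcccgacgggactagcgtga
Aars promoter, chr8:111033722-111033871, plus strand: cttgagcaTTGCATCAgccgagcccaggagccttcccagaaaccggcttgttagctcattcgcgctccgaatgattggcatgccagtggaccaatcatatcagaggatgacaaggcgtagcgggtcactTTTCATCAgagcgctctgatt
Iars promoter, chr13:49682010-49682159, plus strand: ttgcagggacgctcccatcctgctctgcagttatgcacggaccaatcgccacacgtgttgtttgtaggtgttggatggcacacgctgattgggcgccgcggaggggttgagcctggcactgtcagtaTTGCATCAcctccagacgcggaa
Tars promoter, chr15:11399629-11399778, minus strand: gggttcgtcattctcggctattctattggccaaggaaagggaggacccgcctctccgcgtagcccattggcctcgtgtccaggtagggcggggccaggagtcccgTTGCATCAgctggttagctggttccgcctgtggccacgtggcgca
Kars promoter, chr8:112011325-112011474, minus strand: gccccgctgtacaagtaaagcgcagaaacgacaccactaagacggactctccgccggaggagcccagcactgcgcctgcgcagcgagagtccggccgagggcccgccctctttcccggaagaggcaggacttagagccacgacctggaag
Qars promoter, chr9:108507885-108508034, plus strand: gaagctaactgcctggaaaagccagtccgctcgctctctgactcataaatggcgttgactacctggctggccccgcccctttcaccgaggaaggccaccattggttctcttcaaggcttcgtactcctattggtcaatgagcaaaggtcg

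Aars held the element at 2 positions and the other 4 genes at 1. It began 30 bases before the start in Gars and 15 before it in Tars, and in Yars and Iars it lay within the first transcribed bases. These letters were not in this window of Eprs, Sars and Farsb, which were also higher. The E-box CACGTG was in 4 of 12 cytosolic promoters (Aars, Farsb, Iars and Tars), in 1 of 14 mitochondrial promoters (Ears2) and in 8.09% of all. The cAMP response element TGACGTCA, in 2.03% of all promoters, and the ER stress response element, in 0.137% of all, were in none of the members' promoters. No match of one motif overlapped a match of another. A match is a description of the letters and does not show binding.

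Most genes beside the synthetases in tRNA charging did not pass in cardiomyocytes. Of 14 such genes tested, from a list of 15, Xpot and Mars were higher and none was lower, with a median log2 fold change of 0.07. Of all genes 9.08% were higher by this rule, so the count alone says little about the list. At an unadjusted p under 0.05, 4 of the 14 were higher, compared with 16% of all genes. Xpot, which exports tRNA from the nucleus, was at 41.9, 33.4, 35.3 and 36.9 CPM in WT and at 168, 119.8, 138 and 164 CPM in Taz-KO (log2 fold change 1.995, standard error 0.17, adjusted p = 2.08e-05). Mars, the cytosolic methionine enzyme, was at 10.8, 11.1, 11.1 and 7.80 CPM in WT and at 33.7, 25.1, 34.7 and 42.6 CPM in Taz-KO (log2 fold change 1.73, standard error 0.19, adjusted p = 1.84e-04). Both were in the range of the higher cytosolic synthetases. Mars is also part of the multisynthetase complex, of whose catalytic members 4 of 8 passed when it is counted in. The list also held the scaffold genes Aimp1, Aimp2 and Eef1e1 of the multisynthetase complex, none of which passed.

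Of 40 genes of the amino acid response and the integrated stress response, 31 were higher in Taz-KO cardiomyocytes and none was lower, with a median log2 fold change of 2.22. Of all genes 9.08% were higher by this rule. The list was chosen with earlier results of these data known. At the same threshold 7 of 39 tested genes were higher in fibroblasts (0.305% of all genes) and 10 of 37 in endothelial cells (0.31%). It was 4 of 36 in macrophages (0.128%) and 2 of 30 in pericytes (0.0859%). In cardiomyocytes the 5 with the largest log2 fold changes were Adm2, Fgf21, Asns, Trib3 and Slc7a3. Adm2, a peptide hormone of the calcitonin family, had no UMI in the WT cardiomyocytes and was at 2.43, 3.16, 3.40 and 3.35 CPM in Taz-KO. Set against a limit of 3 counts for the WT mice together, it was at least 199-fold higher. Fgf21, a hormone of metabolic stress, was at 0, 0.0287, 0.0255 and 0 CPM in WT and at 3.85, 4.13, 7.16 and 0.993 CPM in Taz-KO. Asns, which makes asparagine, was at 0.572, 1.00, 0.919 and 0.196 CPM in WT and at 44.2, 28.2, 43.0 and 34.4 CPM in Taz-KO (log2 fold change 5.75, adjusted p = 1.25e-05). Genes of this list thus included log2 fold changes larger than that of any synthetase. Trib3, a pseudokinase that acts on ATF4 signalling, had a log2 fold change of 5.62 (adjusted p = 3.56e-06) and Slc7a3, a transporter of cationic amino acids, one of 5.56 (adjusted p = 5.88e-06).

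The mRNA of Atf4 itself did not pass. It was at 39.1, 43.4, 32.9 and 30.001 CPM in WT and at 45.8, 55.1, 74.1 and 29.4 CPM in Taz-KO (log2 fold change 0.50, adjusted p = 0.210). Ddit3, which encodes the stress factor CHOP, was at 37.9, 36.4, 21.5 and 23.0 CPM in WT and at 93.1, 57.1, 63.1 and 69.3 CPM in Taz-KO (log2 fold change 1.25, adjusted p = 0.00409). The mice overlapped in Atf4 and not in Ddit3. Of the 6 genes of upstream kinases and their mitochondrial relay, Eif2ak3, the kinase PERK, was higher (log2 fold change 0.60, adjusted p = 0.0484) and Dele1, which relays mitochondrial stress to the kinase HRI, was lower (-0.63, adjusted p = 0.0131). Eif2ak1, Eif2ak2, Eif2ak4 and Oma1 did not pass.

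The same UMIs were also described by the share of cardiomyocyte nuclei with a UMI, which is thus no separate evidence of the higher levels. Each nucleus was thinned to 1000 UMIs, since depth differed between libraries, and 44 Taz-KO and 0 WT cardiomyocytes were too shallow and left out. A UMI of at least 1 cytosolic synthetase gene was found in 80.1%, 74.1%, 81.9% and 77.6% of the nuclei of the Taz-KO mice and in 44.4%, 44.3%, 43.0% and 38.1% of those of the WT mice. No Taz-KO mouse was near the WT range. Without thinning the mean shares were 98.4% and 98.2%, close to the maximum in both. For mitochondrial genes the thinned shares overlapped, at 59.6%, 58.2%, 69.1% and 62.9% in Taz-KO and 71.3%, 79.8%, 65.9% and 69.2% in WT. Much of this came from Lars2, whose own thinned share was 29.8%, 22.7%, 45.1% and 29.7% in Taz-KO and 49.9%, 63.4%, 41.7% and 42.5% in WT. By gene, each Taz-KO mouse was above each WT mouse for 13 of the 19 cytosolic genes (12 in a second draw) and 2 of the 16 mitochondrial genes, and for 7.72% of all genes. For Gars the thinned share was 10.3% ± 2.11 (SD, n = 4) in Taz-KO and 2.22% ± 0.423 in WT, and the unthinned means were 63.97% and 21.5%. No cell type lacks these housekeeping genes, so no share in such a type could be set beside these.

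**Figure D3:**
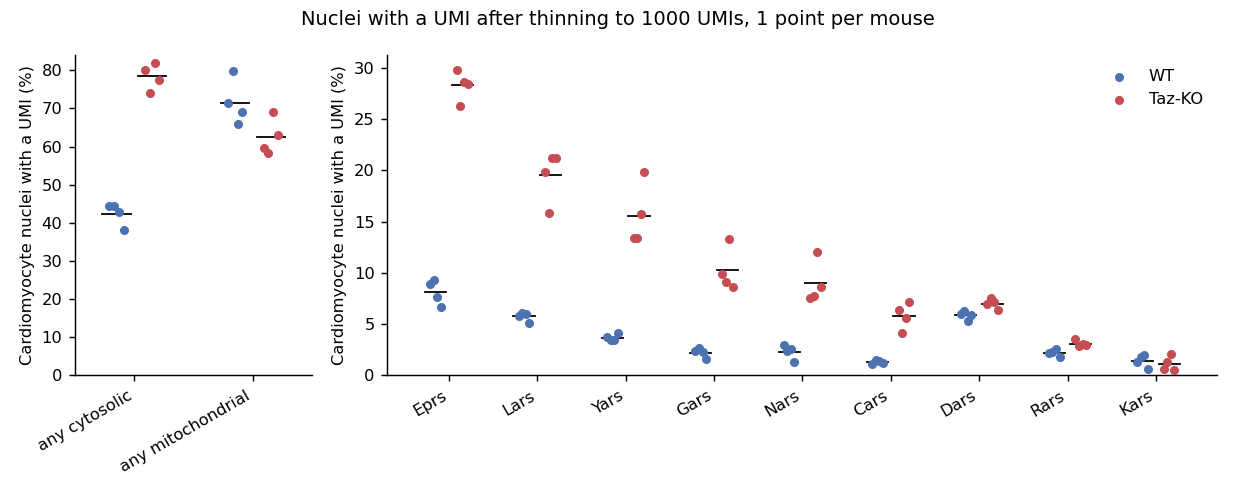
Share of cardiomyocyte nuclei, in percent, with a UMI of any synthetase gene of each compartment (left) and of 9 single cytosolic genes (right), after thinning each nucleus to 1000 UMIs, with 1 point per mouse. For any cytosolic gene the Taz-KO mice sit between 74.1% and 81.9% and the WT mice between 38.1% and 44.4%.

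Cardiomyocyte nuclei fell into 6 clusters. In clusters 4, 6 and 10, where each mouse had 10 nuclei or more, each Taz-KO mouse was above each WT mouse for 14 of the 19 cytosolic genes. These were in each cluster the 12 higher genes, which were chosen on the sum of these same nuclei, and 2 of the other 7. Of the 16 mitochondrial genes it held for 1, 3 and 1, and of all genes for 11.1%, 9.05% and 11.1%. In cluster 4 Gars was on average at 114 CPM in Taz-KO and 19.3 CPM in WT, in cluster 6 at 120.3 and 24.9 CPM and in cluster 10 at 158 and 22.1 CPM. Cluster 10 held 17.05% to 25.1% of the cardiomyocytes of the Taz-KO mice and 3.20% to 4.85% of those of the WT mice. The small clusters 20, 21 and 23 held nuclei of all 8 mice, but mice with fewer than 10 nuclei were left out, which left 4 Taz-KO and 3 WT, 2 and 4, and 3 and 4 mice. Gars was there at 74.0 to 153 CPM, 93.7 to 140.3 CPM and 81.2 to 138 CPM in Taz-KO and at 28.0 to 31.8 CPM, 17.1 to 27.4 CPM and 12.7 to 52.6 CPM in WT. Of the 12 genes, which were chosen on sums that include these nuclei, each Taz-KO mouse was above each WT mouse for 9, 10 and 8. Of the other 7 cytosolic genes this held for 1, 3 and 2. Of the 16 mitochondrial genes it held for 1, 3 and 1, and of all genes for 5.21%, 16.9% and 3.83%. The exceptions among the 12 were Farsb, Tars and Vars in cluster 20, Tars and Vars in cluster 21, and Farsb, Aars, Tars and Vars in cluster 23. In cardiomyocytes the summed level of the 7 fibroblast markers was between 902 and 4580 CPM in WT and between 272 and 3224 CPM in Taz-KO, and that of the 7 macrophage markers between 178 and 355 CPM in WT and between 120.2 and 326 CPM in Taz-KO. The 5 smooth muscle markers summed to 12.8 to 50.6 CPM in WT and to 45.7 to 234 CPM in Taz-KO, and the 5 B-lymphocyte markers to 21.04 to 26.3 CPM in WT and to 8.33 to 16.3 CPM in Taz-KO. The sums of the other 7 lists overlapped between genotypes, and the part of such cells in the differences was not tested.

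Outside cardiomyocytes the median log2 fold change of the 19 cytosolic genes was smaller. It was 0.34 in fibroblasts, 0.57 in endothelial cells, 0.61 in macrophages and 0.56 in pericytes, beside 1.01 in cardiomyocytes. By edgeR no synthetase gene passed an adjusted p of 0.05 in fibroblasts, endothelial cells or macrophages, where 0.305%, 0.31% and 0.128% of all genes were higher by this rule. In pericytes, where it was 0.0859%, only Gars passed, at 42.6, 45.9, 37.4 and 33.4 CPM in WT and 94.2, 115, 115 and 80.8 CPM in Taz-KO (log2 fold change 1.39, standard error 0.20, adjusted p = 0.0189). Its adjusted p was above 0.05 in each fit that left out any one of Taz-KO mice 4685, 4910 and 5300 or WT mice 4686, 4909 and 5355. At an unadjusted p under 0.05, 8 of 19 cytosolic genes were higher in fibroblasts and in pericytes, and 10 of 19 in endothelial cells and in macrophages. Of all genes 6.66% in fibroblasts, 5.32% in endothelial cells, 3.3% in macrophages and 2.99% in pericytes were higher at this p. Gars, Nars, Sars, Eprs, Iars, Lars, Aars and Cars were among them in each of the 4 types. Yars and Tars joined them in endothelial cells and Yars and Vars in macrophages. Over all nuclei, named or not, 9 of 19 cytosolic genes were higher at an adjusted p under 0.05, where 3.66% of all genes were, with log2 fold changes up to 1.58 in Gars.

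**Figure D4:**
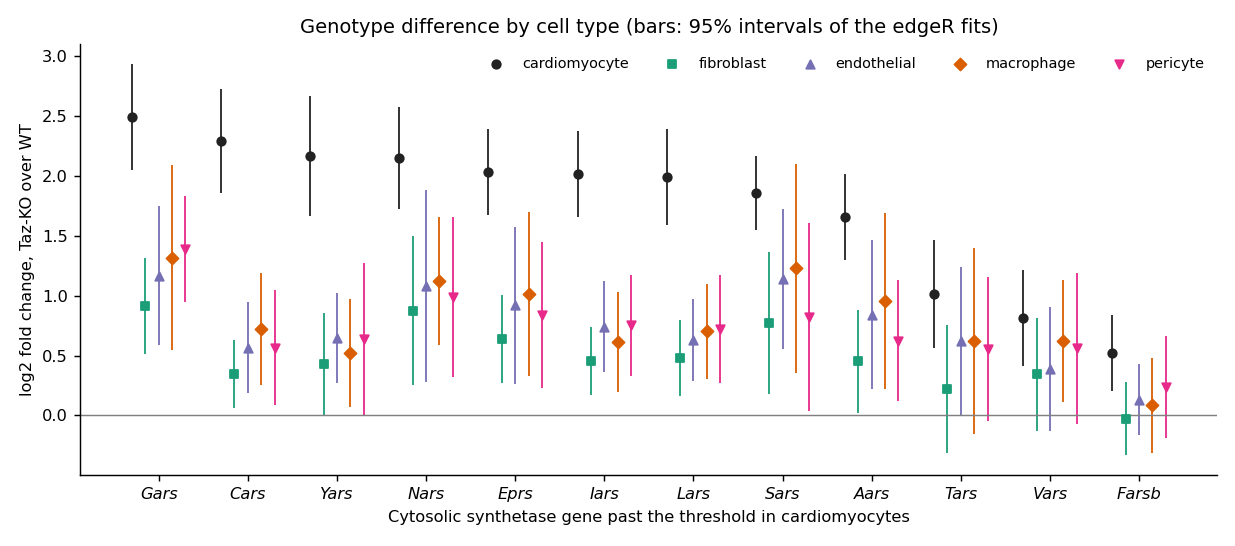
Log2 fold changes, Taz-KO over WT, of the 12 cytosolic synthetase genes past the threshold in cardiomyocytes, with 95% intervals of the edgeR fits, by cell type. The Gars values are 2.49 (cardiomyocytes), 0.91 (fibroblasts), 1.17 (endothelial cells), 1.32 (macrophages) and 1.39 (pericytes).

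In fibroblasts, endothelial cells, macrophages and pericytes, Taz-KO mouse 5301 was the lowest Taz-KO mouse for Gars, Nars, Sars, Eprs and Aars. Gars in fibroblasts was at 53.3, 52.2, 56.8 and 40.6 CPM in WT and at 102, 110.0, 101 and 67.9 CPM in Taz-KO (log2 fold change 0.91, standard error 0.18, adjusted p = 0.0847). In endothelial cells it was at 49.2, 48.0, 52.8 and 36.6 CPM in WT and at 132, 118, 112 and 53.6 CPM in Taz-KO (log2 fold change 1.17, adjusted p = 0.126). In macrophages it was at 41.1, 46.5, 39.9 and 33.6 CPM in WT and at 131, 115, 116 and 37.4 CPM in Taz-KO (log2 fold change 1.32, adjusted p = 0.336). In each the last Taz-KO value, that of mouse 5301, was the lowest, and in macrophages it lay within the WT range. Other genes went the other way, since this mouse was the highest for Yars in fibroblasts, at 98.9 CPM, and for Lars in fibroblasts, at 125 CPM. Without this mouse, edgeR called Gars, Nars and Sars in fibroblasts, Aars, Eprs, Gars, Iars, Nars and Sars in endothelial cells, and Eprs, Gars, Nars and Sars in macrophages. DESeq2 on all mice called 3 genes in fibroblasts (Eprs, Gars and Iars), 5 in endothelial cells (Gars, Iars, Lars, Sars and Yars) and 4 in macrophages (Gars, Iars, Lars and Nars). The shares of all genes given above for these types are from edgeR on all mice and do not apply to either set of calls.

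The level of cardiomyocyte markers also differed between these mice. The 7 cardiomyocyte markers summed to between 37673 and 63057 CPM in cardiomyocytes themselves. In fibroblasts they summed to 2747 CPM in Taz-KO mouse 5301 and to between 5651 and 13267 CPM in the other 7 mice. Taz-KO mouse 4685 was next, with 5651 CPM of these markers in fibroblasts, beside 11909 and 10777 CPM in mice 4910 and 5300. Its Gars level in fibroblasts, 102 CPM, was close to theirs. WT mouse 5356, at 6304 CPM of these markers in fibroblasts, had the lowest Gars of the WT mice there. It was also the lowest WT mouse for both these markers and Gars in endothelial cells and in macrophages. In endothelial cells these markers summed to 4490.1 CPM in mouse 5301 and to between 9004 and 16424 CPM in the others, and in macrophages to 3808 CPM in mouse 5301 and to between 9524 and 15955 CPM. In the 10% of barcodes that held the fewest UMIs in a library Gars was at 51.8, 48.5, 52.2 and 30.7 CPM (before TMM scaling) in WT and at 209, 168, 137 and 80.9 CPM in Taz-KO. Mouse 5301 was again the lowest of the Taz-KO mice. The part of free RNA in the differences outside cardiomyocytes was not tested. These barcodes were called nuclei in the deposited tables and not empty droplets, with at least 2165 UMIs each in 6 of the 8 libraries. In Taz-KO mouse 5301 only 3890 of 5571 barcodes passed the filters, so its lowest 10% were barcodes not kept as nuclei here. The profile is thus only a stand-in for free RNA. In cardiomyocytes, after 0.2 of the UMIs were subtracted in proportion to it, 11 of the 12 genes passed, with Vars at an adjusted p of 0.0525.

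The difference between cell types was itself tested, as the interaction of cell type and genotype with the mouse as a block. The log2 fold change was larger in cardiomyocytes than in fibroblasts for 9 of 19 cytosolic genes, where 2.55% of all genes were. It was larger than in endothelial cells for 5 (1.25% of all genes), than in macrophages for 4 (0.687%) and than in pericytes for 8 (1.24%). Cars, Iars, Lars and Yars passed against each of the 4 types. Cars differed most from fibroblasts, by 1.90 on the log2 scale (standard error 0.18, 95% interval 1.51 to 2.30, adjusted p = 3.96e-04). Gars passed against fibroblasts, endothelial cells and pericytes, and against macrophages its difference was 1.29 (95% interval 0.54 to 2.05, adjusted p = 0.147). Its call against endothelial cells was lost in the fit without the mouse as a block (adjusted p = 0.0555), and that against pericytes in this fit (adjusted p = 0.0715) and without Taz-KO mice 4685 and 5301 (adjusted p = 0.0632). Tars, Vars and Farsb passed against none. None of the mitochondrial genes passed against any type by edgeR, and at an unadjusted p under 0.05 only Sars2 and Cars2 did, both against fibroblasts.

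Without Taz-KO mice 4685 and 5301 the counts were 9 against fibroblasts, 7 against endothelial cells, 6 against macrophages and 6 against pericytes, and Cars, Iars, Lars and Yars were in each. In the fit without the mouse as a block the counts were 7 against fibroblasts, 4 against endothelial cells, 4 against macrophages and 2, Cars and Iars, against pericytes. The shares of all genes given above belong to the fit of all mice with the mouse as a block and not to these fits.

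Lars2 was lower outside cardiomyocytes too, at an unadjusted p under 0.05 in each of the 4 types. Its log2 fold change was -1.13 in fibroblasts (adjusted p = 0.287), -0.99 in endothelial cells (adjusted p = 0.477), -1.07 in macrophages (adjusted p = 0.776) and -1.12 in pericytes (adjusted p = 0.741). In fibroblasts it was at 1644, 2112, 1198 and 1097 CPM in WT and at 674, 539, 1188 and 360.4 CPM in Taz-KO. Mouse 5300 was the highest Taz-KO mouse in each of these types, as in cardiomyocytes, and overlapped the WT mice. The log2 fold change in cardiomyocytes differed from that in fibroblasts by 0.08 (95% interval -0.31 to 0.47). The only other mitochondrial gene with an unadjusted p under 0.05 was Ears2, in fibroblasts, with a log2 fold change of 0.46 (adjusted p = 0.490).

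**Figure D5:**
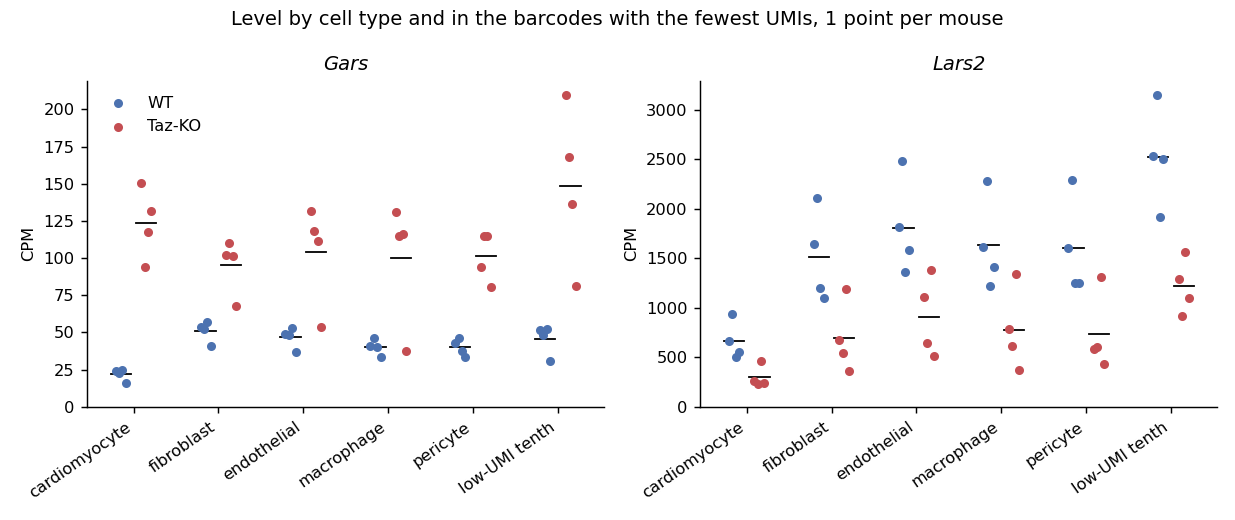
CPM of Gars and Lars2 in the 5 cell types and in the 10% of barcodes that held the fewest UMIs in a library, with 1 point per mouse and axes from 0. Gars in Taz-KO is between 93.9 and 151 CPM in cardiomyocytes, and Lars2 is higher in these barcodes than in cardiomyocytes in each mouse.

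The order of cell types by mean level differed with genotype, less so by single mice. Compared gene by gene on the CPM scale within each type, the mean level in WT was lowest in cardiomyocytes for 16 of the 19 cytosolic genes, compared with 61.3% of all genes tested in the 5 types. In Taz-KO the mean was highest in cardiomyocytes for 10 of the 19, compared with 19.4% of all genes. Of these 10, 9 were among the 12 genes chosen as higher in Taz-KO cardiomyocytes, so this order is a description. By single mice, each WT mouse was lower in cardiomyocytes than any WT mouse in the other 4 types for 7 of the 19 genes (23.7% of all genes), and each Taz-KO mouse was higher there for 4 of the 19, Eprs, Iars, Lars and Yars (6.83% of all genes). Of the 16 mitochondrial genes, the WT mean was lowest in cardiomyocytes for 8 and highest for 5. CPM is a share of the UMIs of a type, so these orders compare shares and not amounts per nucleus.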

How the data were processed

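Nuclei from cryopreserved whole hearts of 4 WT and 4 Taz-KO mice were sequenced with the 10x Genomics 3′ kit. The authors deposited a table of UMI counts for each library, from Cell Ranger 6.0.1 on mm10 per the labels. Genes of the mitochondrial genome were left out of the filters and of all sums. Of 169193 barcodes, 167495 had at least 800 UMIs and 250 genes, and 16231 were removed as likely doublets by their neighbourhood among simulated doublets. The other 151264 were clustered with Leiden at a resolution of 0.9 and 20 neighbours. The input was 15 principal components of 2000 variable genes, aligned by Harmony's algorithm with the mouse as the batch. Clusters were named from marker lists, and the naming rule was revised after the marker scores had been seen. Clusters with mixed markers stayed unnamed.

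Counts were summed per mouse and type, for mice with at least 10 nuclei, and the sums were compared by edgeR 4.0.16 under R 4.3.3 (limma 3.58.1, TMM, filterByExpr, robust quasi-likelihood F test, two-sided), with Benjamini-Hochberg adjustment over all genes of the type. Adjusted p-values in the text are from this test unless DESeq2 1.42.0 is named. The mouse was the replicate, and p-values weigh a genotype difference against the spread between these mice. The interaction fits used the mouse as a block, so their p-values rest on the spread that is left within mice. Alternatives were DESeq2, its size factors, no filter on low counts, each mouse left out and both shallow libraries left out. A further one subtracted 0.2 of the UMIs in proportion to the 10% of barcodes with fewest UMIs (called nuclei in the deposited tables, not empty droplets). The others were doublets kept, a resolution of 0.5, at least 1500 UMIs and a stricter threshold. The tests were checked on simulated data. Thinning drew 1000 UMIs per nucleus. Python 3.11.15 with numpy 2.4.6, pandas 2.3.3, scipy 1.17.1, scikit-learn 1.9.0 and igraph 0.11.9 was used.

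The members and gene lists were chosen with earlier results of these data known. Values in every mouse are given for members past the threshold in cardiomyocytes and for the cytosolic members that did not pass, and for the 3 lowest and 3 highest mitochondrial members by log2 fold change. In the other types members with an unadjusted p under 0.05 are named. From each other list the 5 largest absolute log2 fold changes past the threshold are named, with Atf4, Ddit3 and Taz in any case. Gm42418, AY036118 and the genes of a list named as not passing were picked once their values had been seen. Promoters were taken from RefSeq on GRCm38.p6 and positions of genes from GENCODE on GRCm38. Intervals are at 95% and rest on the spread between mice as the fit estimates it, or on that within mice in the interaction fits.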

Additional observations from a re-analysis of the deposited data

Results flagged for a closer look

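In cardiomyocytes, 8 of the 70 groups of 4 mice (35 genes in each genotype) had 1 mouse far from the other 3 by Dixon's criterion, which chance alone flags in about 1 group in 20. WT mouse 5356 was the lowest for Nars, at 15.7 CPM, and for Qars, at 7.21 CPM, and the highest for Iars2, at 76.3 CPM, and for Nars2, at 72.5 CPM. Taz-KO mouse 5301 was at 268 CPM for Yars and at 3.85 CPM for Mars2. Taz-KO mouse 5300 was at 461 CPM for Lars2 and Taz-KO mouse 4685 at 2.43 CPM for Pars2. In Nars, Yars and Lars2 the genotypes did not overlap with these mice included.

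The genotype difference was larger in cardiomyocytes than in another cell type for 26 pairs of gene and cell type, by the interaction test with the mouse as a block (log2 scale). Against fibroblasts the differences were 1.90 for Cars, 1.74 for Yars, 1.62 for Gars, 1.58 for Iars, 1.53 for Lars, 1.44 for Eprs, 1.33 for Nars, 1.23 for Aars and 1.14 for Sars. Against endothelial cells they were 1.65 for Cars, 1.5 for Yars, 1.38 for Gars, 1.37 for Lars and 1.27 for Iars. Against macrophages they were 1.62 for Yars, 1.54 for Cars, 1.41 for Iars and 1.30 for Lars. Against pericytes they were 1.62 for Cars, 1.52 for Yars, 1.25 for Eprs, 1.24 for Iars, 1.23 for Lars, 1.18 for Nars, 1.07 for Gars and 1.04 for Aars.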

How the results depend on the processing

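The count of 12 cytosolic genes higher in cardiomyocytes was 11 to 12 when any 1 mouse was left out, and Farsb was the gene lost in 4 of these fits, with an adjusted p of 0.0635 also without the filter on low counts. It was 9 under the stricter threshold, without Tars, Vars and Farsb, and 10 without both shallow Taz-KO libraries, without Vars and Farsb. The call of Lars2 was lost under the stricter threshold and without both shallow Taz-KO libraries (adjusted p = 0.134). It was also lost after subtraction of the low-UMI profile (adjusted p = 0.763). Each of these left 0 mitochondrial genes, and the count was 0 to 1 when 1 mouse was left out. The log2 fold change of Lars2 was between -1.195 and -0.96 in these alternatives. The subtraction took most of its UMIs, so that fit does not bear on its stability. Elsewhere the counts of cytosolic genes depended more on the settings. DESeq2 called 3 (fibroblasts), 5 (endothelial cells) and 4 (macrophages), where edgeR called 0. Without both shallow libraries there were 2 in endothelial cells and 2 in macrophages. With 1 mouse left out there were 0 to 3 (fibroblasts), 0 to 6 (endothelial cells), 0 to 4 (macrophages) and 0 to 1 (pericytes). Shares of all genes were not set beside these counts. In pericytes the call of Gars was lost (0 genes) under the stricter threshold, after this subtraction and with at least 1500 UMIs. The genes with a larger difference in cardiomyocytes than in pericytes were 2 without the mouse as a block. Unthinned, the shares of cardiomyocytes with a UMI of a cytosolic gene were 98.2% in WT and 98.4% in Taz-KO. Kars and Qars changed sign without being called in any fit. Kars was at -0.57 after subtraction of the low-UMI profile, at 0.11 without both shallow libraries and between -0.30 and 0.045 with 1 mouse left out, and Qars was at 0.0022 and between -0.22 and 0.17 in these fits and at 0.040 after this subtraction. Over the single genes and alternatives, 401 values kept their direction and side of the threshold, 17 kept only the direction and 7 changed sign, and the cause was not tested. No analysis paired WT with Taz-KO mice, because the labels do not say which mice belong together. Among the 5 cell types reported, depth limits pericytes most, with 14 nuclei in Taz-KO mouse 4685.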
